A study of Mus musculus with 32 samples.

Results

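The genotype by cell type interaction compares how much the loss of an imprinted microRNA cluster changed each gene's RNA in neurons with how much it changed the same gene in the stem cells those neurons were made from. It is the log2 effect of the deletion in neurons minus the log2 effect in stem cells, so a positive value means that the deletion cells stood higher relative to control in neurons than in stem cells. The members are all genes in the 12 RNA-seq libraries of a series of 32 libraries. The files held 52636 gene entries, of which 18299 had enough counts to be tested and 11133 were measured in both cell types, meaning a mean of at least 2 CPM (counts scaled to the size of the library) in at least 1 genotype of each.

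The 4 groups had 3 libraries each (A, B and C). Deletion iNs and control iNs were induced neurons (iNs) at day 10 of doxycycline induction of a TetO-Ngn2 transgene, Ngn2 being the proneural factor Neurog2. Deletion ESCs and control ESCs were the hybrid mouse embryonic stem cells (ESCs) at day 0, grown with serum and LIF. Deletion cells were Mirg(Delta/+), with the cluster from miR-379 to miR-410 removed from the maternal chromosome, and control cells were Mirg(fl/+). All cells therefore carried an altered Mirg allele. The labels do not say how many clones the libraries represent, and day, medium and cell type cannot be told apart in this contrast.

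MicroRNAs pair through a short seed with messenger RNAs and lower their stability and translation through Argonaute proteins such as Ago2. The miR-379/410 cluster lies in the Dlk1-Dio3 imprinted domain, is expressed from the maternal chromosome and is known for its activity in brain. Several of the genes below belong to metabolic programmes with known regulators, namely ATF4, which drives amino acid synthesis and import, and SREBP, which drives sterol and fatty acid synthesis. These are background facts and not results of these libraries.

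Libraries held 14904735 to 21499106 counts, and the first principal component, which separated iNs from ESCs, held 97.9% of the variance. Mirg, from which the cluster is processed, was counted 2, 0 and 2 times in deletion iNs and 455, 685 and 648 in control iNs, and 0 in each deletion ESC library against 932, 672 and 789 in control ESCs. The labels for genotype thus matched the transcript in all 12 libraries, and since both deletion groups were near 0, no interaction is read for Mirg. Marker sums are in CPM of the total counts, without the scaling factors used for the other CPM values. Those factors were 1.02 to 1.04 in deletion iNs and 1.00 to 1.01 in control iNs, and a larger factor lowers the CPM. Summed over 12 neuronal markers, the level was 11109 to 11433 CPM in deletion iNs, 10652 to 10958 in control iNs, 315.5 to 325.9 in deletion ESCs and 278.3 to 282.9 in control ESCs. The 10 stem cell markers summed to 6.29 to 6.78 CPM in deletion iNs, 9.43 to 9.91 in control iNs, 2400 to 2521 in deletion ESCs and 2588 to 2665 in control ESCs. Summed over 5 neural progenitor markers, the level was higher with the deletion in both cell types (22.2 to 28.1 CPM in deletion iNs against 11.9 to 15.2 CPM in control iNs, 100.6 to 102.3 CPM in deletion ESCs against 78.2 to 81.7 CPM in control ESCs), as was the sum over 7 fibroblast markers (85.5 to 94.2 CPM in deletion iNs against 66.2 to 76.4 CPM in control iNs, 89.6 to 97.3 CPM in deletion ESCs against 53.7 to 61.7 CPM in control ESCs). Not every marker went with these sums. In deletion iNs 1 of the 5 progenitor and 2 of the 7 fibroblast markers had no counts, against 0 and 1 in control iNs. Mitochondrial genes took 2.45 to 3.6% of counts in deletion iNs, 3.42 to 4.38% in control iNs, 1.47 to 1.83% in deletion ESCs and 1.99 to 2.27% in control ESCs. Of the 10 tested genes of the longer neural progenitor list, 3 were called higher and 1 lower in deletion iNs, and 1 higher in deletion ESCs. Over all genes tested these shares were 10.8%, 12.1% and 1.45%. The part of these differences in the results below was not tested.

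One measured difference bears on the iNs as a model. Neurog2, the factor whose transgene drives the conversion, had 648, 583 and 583 CPM in deletion iNs, against 215, 214 and 241 CPM in control iNs. In ESCs it had 8.6, 10.2 and 10.4 CPM with the deletion and 8.52, 10.1 and 9.01 CPM in controls. The iN groups did not overlap and the ESC groups did, and the interaction was 1.35 ± 0.12 (log2 ± SE, adjusted p = 3.24e-06). Reads of the transgene and of the endogenous gene cannot be told apart in these counts, and the part of this difference in the other iN results was not tested.

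In all, 2473 of 18299 genes (13.5%) passed an adjusted p of 0.05 in the interaction, 917 positive (5.01%) and 1556 negative (8.5%). Among the 11133 genes measured in both cell types, 717 were positive (6.44%) and 1411 negative (12.7%). The excess of negative calls rested in part on 1 library. Without deletion iN library B there were 907 negative and 856 positive calls, or 51.4% negative against 62.9% with all 12 libraries. It also varied with the processing. The negative share was 58.5% with libraries scaled within each cell type, and 56.9% with only genes of at least 2 CPM in each cell type. Most calls came from genes whose deletion effect was larger in iNs, namely 2027 of 2473 called genes (82%) against 63.4% of all genes tested. The median size of the deletion effect was 0.198 log2 in iNs and 0.118 log2 in ESCs over all genes tested.

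The pattern behind the calls was read from the same fit, in which the deletion called 1974 genes higher (10.8%) and 2221 lower (12.1%) in iNs, 22.9% in all, and 266 higher (1.45%) and 86 lower (0.47%) in ESCs, 1.92% in all. As a measure for the remarks on overlap below, the 3 deletion and 3 control libraries did not overlap in CPM for 37.4% of all genes tested in iNs and for 22.1% in ESCs. The ESC counts were between 130 and 170 higher and 37 and 62 lower when any 1 of the 6 ESC libraries was left out. Of the 1556 negative calls, 1212 (77.9%) were called lower in iNs with no call in ESCs, 89 were called in ESCs alone, 64 were called lower in iNs and higher in ESCs, 10 were called in the same direction in both and 181 in neither. Of the 917 positive calls, 738 (80.5%) were called in iNs alone, 23 in ESCs alone, 21 in opposite directions, 9 in the same direction and 126 in neither. Across the 11133 genes measured in both, the effects in iNs and ESCs had a Pearson correlation of 0.188 and a Spearman correlation of −0.04, and 46.4% had the same sign. Without Mirg, the deleted transcript, the Pearson correlation was 0.0938 over 11132 genes. These figures are across genes, which are not independent replicates, and every gene's 2 effects share the scaling of the same 12 libraries. No chromosome stood apart, with median interactions between −0.1 and −0.02 log2 and between 17.4 and 23.9% of genes called per chromosome.

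**Figure D1:**
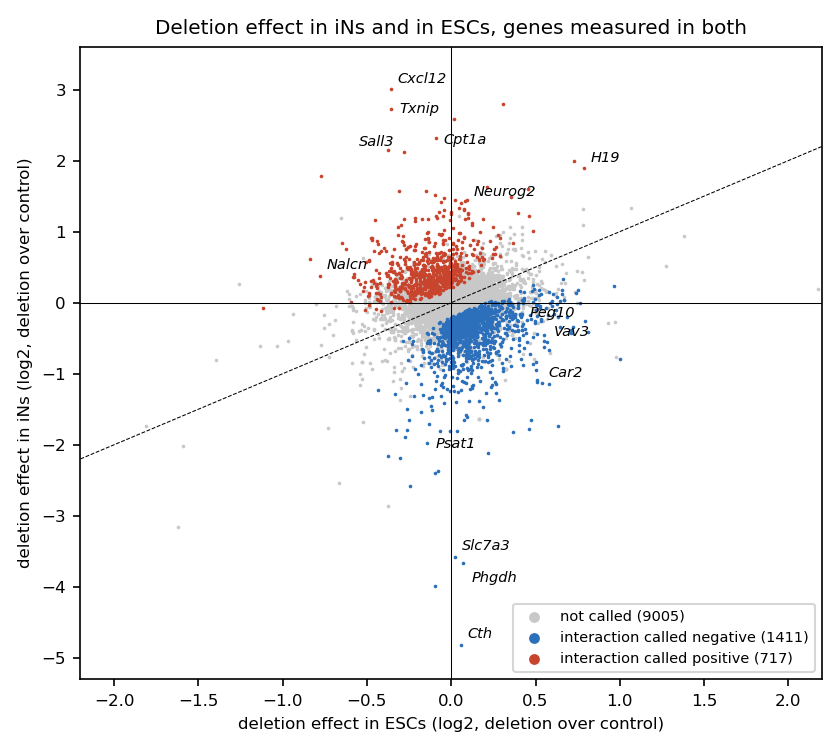
The deletion effect in ESCs (x axis, log2) is plotted against the effect in iNs (y axis, log2) for the genes measured in both cell types, with 717 positive interaction calls in red, 1411 negative calls in blue and the rest in grey; 9 genes lie outside the range drawn. Cth, Phgdh and Slc7a3 lie far below 0 on the iN axis and near 0 on the ESC axis, and the dashed line marks equal effects.

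Among called genes measured in both cell types, leaving out provisional symbols such as those of pseudogenes, the 3 negative values of greatest size belonged to genes that make or import amino acids. Cth, the enzyme that makes cysteine from cystathionine, had 0.404, 0.738 and 0.406 CPM in deletion iNs, against 20.9, 14.1 and 9.29 CPM in control iNs. In ESCs it had 56.1, 60.8 and 59.4 CPM with the deletion and 54.2, 60.8 and 54.6 CPM in controls. The iN groups lay far apart while the ESC groups overlapped, and the interaction was −4.87 ± 0.37 (adjusted p = 8.15e-07). Phgdh, the first enzyme of serine synthesis, had 2.37, 2.53 and 2.94 CPM in deletion iNs and 38.7, 34.6 and 26.9 CPM in control iNs. Its levels in ESCs were 82, 81.4 and 77.1 CPM with the deletion and 76.3, 80.2 and 72.8 CPM in controls, for an interaction of −3.74 ± 0.16. Slc7a3, a carrier of cationic amino acids, had 3.03, 3.9 and 3.7 CPM in deletion iNs against 48.1, 45.5 and 33.2 CPM in control iNs. Deletion ESCs had 203, 212 and 203 CPM and control ESCs 204, 202 and 202 CPM, for an interaction of −3.60 ± 0.16. Psat1, the next enzyme of serine synthesis, had 54.6, 51.7 and 55.3 CPM in deletion iNs against 237, 226 and 175 CPM in control iNs, and its interaction was −1.84 ± 0.12. For Cth, Phgdh and Slc7a3 control iNs already stood below both ESC groups, and deletion iNs stood lower again.

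**Figure D2:**
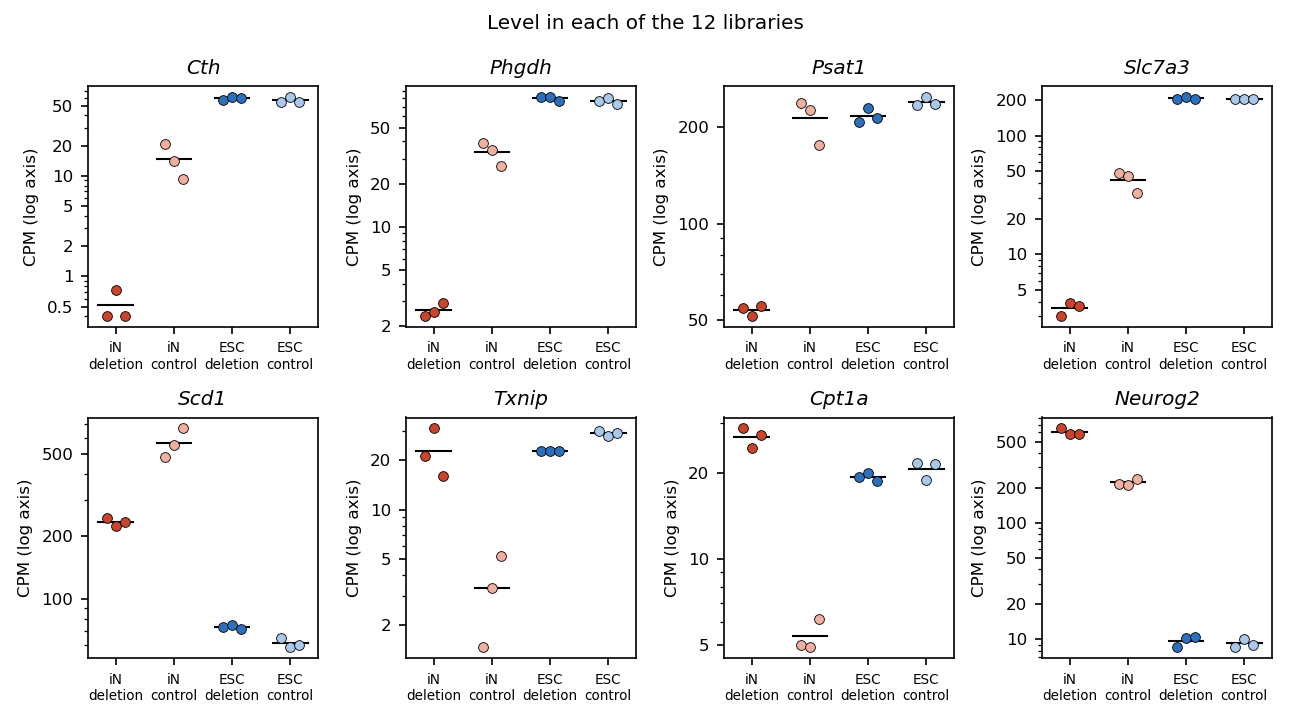
Level of 8 genes in CPM (log axis) in each library, grouped as deletion iNs, control iNs, deletion ESCs and control ESCs; points are libraries and lines are group means. Cth, Phgdh, Psat1, Slc7a3 and Scd1 are lower, and Txnip, Cpt1a and Neurog2 higher, in all 3 deletion iN libraries than in all 3 control iN libraries, while the ESC groups lie closer together.

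Beyond these, 8 of 14 tested serine, glycine and folate enzymes were called negative and none positive, beside 8.5% and 5.01% over all genes tested. The list median was −0.66 log2 against −0.02 over all genes tested. Of the enzymes called, chosen here after their values were seen, Mthfd2 of mitochondrial folate metabolism had 12.2, 14.1 and 13.3 CPM in deletion iNs against 42.1, 36.8 and 30.7 CPM in control iNs, and an interaction of −1.65 ± 0.14. Aldh1l2, another mitochondrial folate enzyme, stood at −1.52 ± 0.22 and Shmt2, which converts serine to glycine, at −0.98 ± 0.12. Among 16 amino acid transporters 10 were called negative and none positive (median −0.47). Slc7a5, the light chain of the large neutral amino acid carrier, had 124, 119 and 124 CPM in deletion iNs against 297, 283 and 247 CPM in control iNs (interaction −1.30 ± 0.08), and its heavy chain Slc3a2 stood at −1.0 ± 0.08. Slc1a5, a glutamine carrier, had 4.59, 5.96 and 5.17 CPM in deletion iNs against 15.1, 15.4 and 19 CPM in control iNs. Its ESC levels were 52.7, 52.5 and 50.9 CPM with the deletion and 46.7, 44.9 and 43 CPM in controls. Its interaction was −1.87 ± 0.13, and in ESCs the deletion effect of 0.21 had an adjusted p of 0.23. Among 10 cysteine and glutathione enzymes 4 were called negative (Cth, Chac1, Got1 and Mat2a) and 1 positive (Gss, which completes glutathione).

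ATF4 and its stress response genes gave a list median of −0.81 log2, with 10 of 19 called negative and none positive. Atf4 itself, the transcription factor, had 99.2, 101 and 100 CPM in deletion iNs against 176, 174 and 165 CPM in control iNs. In deletion ESCs the level was 140, 142 and 139 CPM, against 137, 128 and 127 CPM in control ESCs, for an interaction of −0.88 ± 0.06. Chac1, which degrades glutathione, had 2.12, 3.8 and 2.13 CPM in deletion iNs against 16.5, 14.1 and 10.9 CPM in control iNs, and an interaction of −2.29 ± 0.32. Stc2, a secreted stress-induced glycoprotein, had 2.02, 1.42 and 2.13 CPM in deletion iNs against 11.8, 12.4 and 9.29 CPM in control iNs (interaction −2.34 ± 0.22). The ESC groups overlapped for both. Further members called were Atf5 (−1.43 ± 0.14), Trib3 (−1.20 ± 0.25), Sesn2, a leucine sensor (−1.15 ± 0.11), Ddit3 (−1.10 ± 0.24) and Asns, the asparagine synthetase (−0.71 ± 0.10). In ESCs no member of the serine, transporter or ATF4 lists was called in either direction.

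Promoters of these genes were searched for TGATGNAA, the core of the composite C/EBP-ATF site that ATF4 is known to bind, on both strands of the 250 bases before the start. Of 31 genes called negative in the serine, cysteine, transporter and ATF4 lists, 24 had a promoter sequence in the RefSeq table (GRCm38.p6). Of these, 4 (16.7%) held the motif, against 1134 of 32851 promoters overall (3.45%). The first share was counted by gene, with a match in any of its promoters, and the second by promoter, so they are not alike. The 4 were Asns, Chac1, Got1 and Slc7a11, and the promoters of Phgdh, Psat1, Stc2, Atf5, Sesn2, Shmt2, Mthfd2 and Slc3a2 had no match in this window. Shown are 3 of them with the fixed letters and the free base of the motif in capitals, Chac1 at chr2:119350992-119351241 (plus strand, −193 bases from the start, on the reverse strand), Asns at chr6:7693210-7693459 (minus strand, −23) and Slc7a11 at chr3:50443614-50443863 (minus strand, −66 and, on the reverse strand, −47). A match describes these letters and is not evidence of binding, and the motifs searched here and below were chosen with the results for the lists known.
Chac1: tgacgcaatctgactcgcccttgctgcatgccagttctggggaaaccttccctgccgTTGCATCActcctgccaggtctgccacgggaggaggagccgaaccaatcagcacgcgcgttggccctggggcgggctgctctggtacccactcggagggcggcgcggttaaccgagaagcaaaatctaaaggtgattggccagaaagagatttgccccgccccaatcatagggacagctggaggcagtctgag
Asns: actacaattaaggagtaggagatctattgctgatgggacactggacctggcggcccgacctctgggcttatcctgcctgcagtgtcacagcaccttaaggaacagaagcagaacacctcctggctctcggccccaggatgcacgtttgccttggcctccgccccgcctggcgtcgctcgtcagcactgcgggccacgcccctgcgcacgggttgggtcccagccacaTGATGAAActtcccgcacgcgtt
Slc7a11: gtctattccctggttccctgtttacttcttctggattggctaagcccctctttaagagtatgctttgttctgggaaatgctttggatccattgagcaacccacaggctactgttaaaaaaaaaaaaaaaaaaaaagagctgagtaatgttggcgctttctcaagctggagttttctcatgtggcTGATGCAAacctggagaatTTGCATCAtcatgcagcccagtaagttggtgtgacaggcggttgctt
Slc7a11, the cystine carrier, was low throughout, with 0.151, 0.211 and 0.254 CPM in deletion iNs and 1.4, 1.42 and 0.755 CPM in control iNs, and its interaction of −1.85 ± 0.53 lost the call in 10 alternatives (adjusted p 0.0511 to 0.0817), 9 of them with 1 library left out (all but deletion iN library C, control iN library C and control ESC library C).

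Cytosolic aminoacyl-tRNA synthetases, which charge transfer RNAs with amino acids, had smaller negative values. Of 20 tested, 16 were called negative and none positive, the 20 values ran from −0.76 to −0.01 log2, and the median was −0.39. Cars, which charges cysteine, had 45.8, 45.9 and 41.5 CPM in deletion iNs against 83.9, 84.8 and 74.9 CPM in control iNs, for an interaction of −0.76 ± 0.09. Tars, which charges threonine, had 43.2, 37.1 and 41.7 CPM in deletion iNs against 68.1, 66.8 and 59.4 CPM in control iNs, for −0.68 ± 0.09. The list fell by a median of 0.37 log2 in iNs and had a median of 0.03 in ESCs, where no member was called.

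Sterol synthesis was the list with the largest share of calls, 23 of 24 genes negative and none positive, with values from −1.11 to −0.19 log2 and a median of −0.73. Here the interaction drew on both cell types, since the median deletion effect was −0.53 in iNs, where 23 members were called lower, and 0.18 in ESCs, where 3 were called higher. Stard4, a cholesterol carrier, had 99.6, 96.5 and 99.4 CPM in deletion iNs against 186, 186 and 215 CPM in control iNs. Levels were 28.7, 32.8 and 29.4 CPM in deletion ESCs, against 28, 26.3 and 29.4 CPM in control ESCs, for an interaction of −1.11 ± 0.10. Mvd, a mevalonate pathway enzyme, had 88.6, 85.8 and 86.8 CPM in deletion iNs against 146, 175 and 170 CPM in control iNs, for −1.06 ± 0.10, with 23.4, 21.1 and 22.4 CPM in deletion ESCs against 20.3, 19.9 and 20 CPM in control ESCs, where the groups did not overlap and the effect of 0.15 had an adjusted p of 0.37. Cyp51, a sterol demethylase, stood at −0.93 ± 0.07. Fdft1, which commits farnesyl units to sterols, was the member without a call (−0.19 ± 0.08, adjusted p = 0.11).

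Fatty acid synthesis genes followed, with 11 of 12 called negative (median −0.50), all 12 called lower in iNs and 1 called higher in ESCs. Scd1, a stearoyl-CoA desaturase, had 245, 225 and 234 CPM in deletion iNs against 484, 551 and 665 CPM in control iNs. In ESCs it had 73.3, 74.7 and 71.4 CPM with the deletion and 64.6, 58.3 and 59.6 CPM in controls. Its interaction was −1.54 ± 0.12. Scd2, the desaturase abundant in brain, was called in both directions, with 2035, 1928 and 1923 CPM in deletion iNs against 2660, 2903 and 3116 CPM in control iNs. Deletion ESCs had 699, 754 and 743 CPM and control ESCs 595, 603 and 585 CPM (interaction −0.86 ± 0.08). Fasn, the fatty acid synthase, stood at −0.74 ± 0.07. TCACNCCAC, a sterol response element form bound by SREBP, was searched for in the same 250 bases. Counted by promoter, 346 of 32851 held it (1.05%). Counted by gene, it was in 1 of the 25 called sterol and fatty acid genes with a promoter sequence (4%). That gene was Hmgcs1, which feeds the mevalonate pathway (chr13:119690101-119690350, plus strand, −137 bases from the start), with an interaction of −0.54 ± 0.06, and its motif is in capitals.
Hmgcs1: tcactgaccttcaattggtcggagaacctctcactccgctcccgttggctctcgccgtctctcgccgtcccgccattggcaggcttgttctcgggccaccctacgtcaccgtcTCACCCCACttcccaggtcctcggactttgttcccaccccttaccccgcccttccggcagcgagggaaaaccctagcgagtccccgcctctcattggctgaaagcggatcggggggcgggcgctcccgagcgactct

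**Figure D3:**
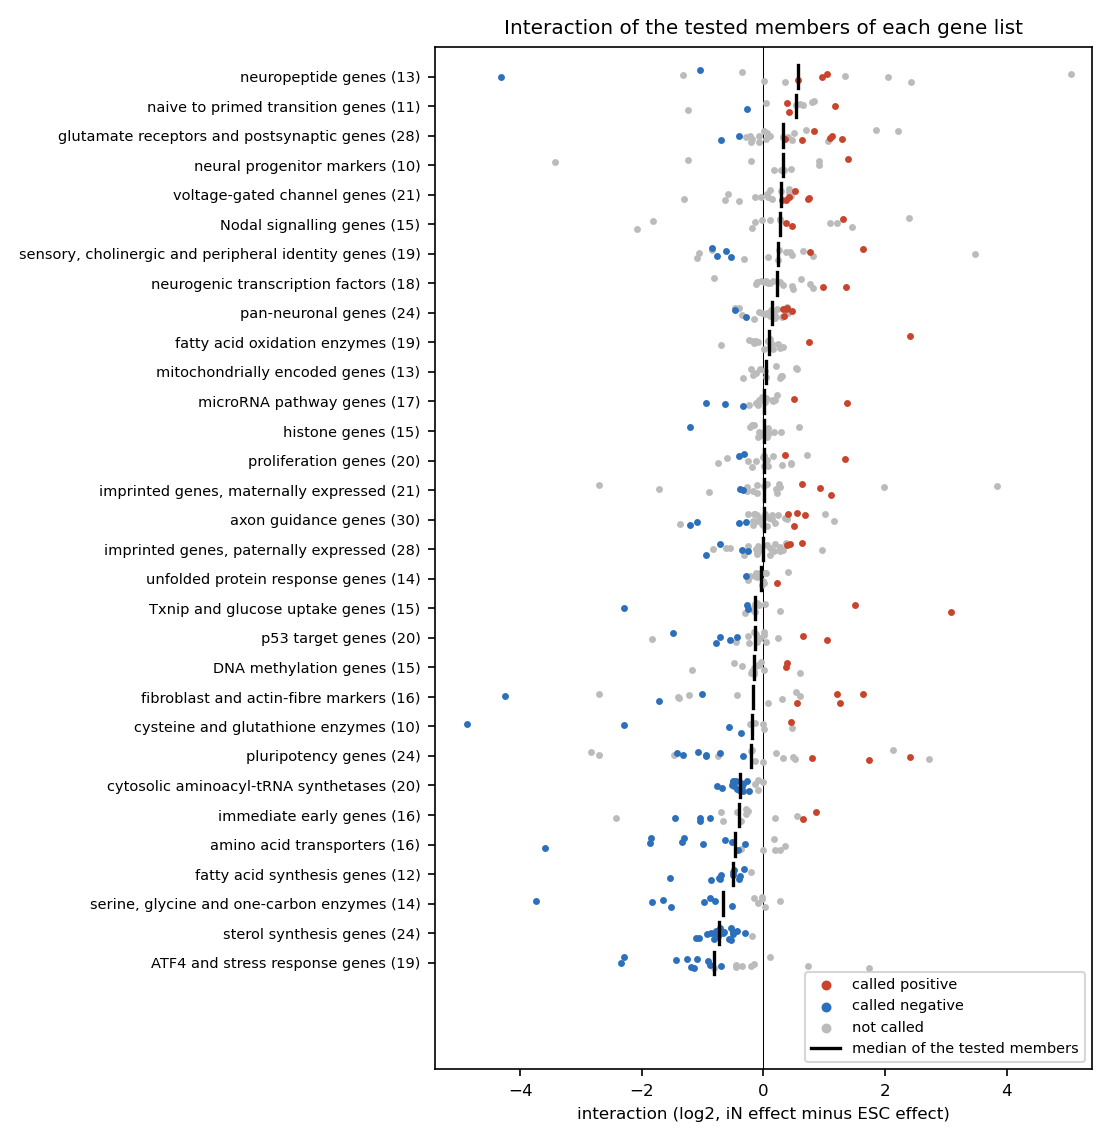
Interaction (x axis, log2) of each tested member of the gene lists with at least 10 tested members, with calls in red (positive) and blue (negative), the rest in grey, and the median as a black bar; lists run from the highest to the lowest median. The amino acid, ATF4, tRNA synthetase, sterol and fatty acid synthesis lists hold their medians at −0.39 log2 or below, apart from the cysteine and glutathione list at −0.18. The immediate early gene list also lies in that range, at −0.41.

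Genes of glucose and fatty acid use were among the highest positive values. Txnip, which restrains glucose uptake and is induced by glucose, had 21, 30.9 and 16 CPM in deletion iNs against 1.47, 3.35 and 5.23 CPM in control iNs. Its ESC levels were 22.7, 22.7 and 22.5 CPM with the deletion and 29.8, 28 and 29.1 CPM in controls. The iN groups did not overlap, and the interaction was 3.09 ± 0.34 (adjusted p = 2.92e-05). Its relative Arrdc4 had 40.7, 43.9 and 31.6 CPM in deletion iNs against 10.1, 14.5 and 17 CPM in control iNs (interaction 1.51 ± 0.21). Hk2, a hexokinase, went with the negative calls, with 0.606, 0.475 and 0.609 CPM in deletion iNs against 3.35, 3.26 and 2.38 CPM in control iNs. In deletion ESCs the level was 135, 121 and 117 CPM, against 142, 129 and 128 CPM in control ESCs (interaction −2.30 ± 0.22). Of the 15 genes of this list 2 were positive and 3 negative, beside 5.01% and 8.5% over all genes tested. There was 1 negative call without deletion iN library B. Txnip is known to respond through paired E-box-like letters. Its promoter (chr3:96557707-96557956, plus strand) held 2 copies of CACGNG with 5 free bases between them, beginning −85 bases from the start. It was 1 of 15 such promoters among 32851 (0.0457%). The 2 genes called positive in this list had a promoter sequence and only Txnip held the match, while none was found for Arrdc4. The match is in capitals.
Txnip: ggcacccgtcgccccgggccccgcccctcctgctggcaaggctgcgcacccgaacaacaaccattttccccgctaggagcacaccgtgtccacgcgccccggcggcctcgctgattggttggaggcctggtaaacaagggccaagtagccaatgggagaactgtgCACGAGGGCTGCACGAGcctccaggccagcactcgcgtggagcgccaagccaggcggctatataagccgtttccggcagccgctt

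Cpt1a, the gate for long-chain fatty acids into mitochondria, had 28.6, 24.4 and 27.2 CPM in deletion iNs against 5.02, 4.91 and 6.16 CPM in control iNs. Levels were 19.3, 20 and 18.8 CPM in deletion ESCs, against 21.6, 18.8 and 21.5 CPM in control ESCs, for an interaction of 2.41 ± 0.14 (adjusted p = 7.17e-08). Slc25a20, the carnitine carrier of the same step, had 24.7, 23.3 and 25.8 CPM in deletion iNs against 13.9, 16.1 and 13.7 CPM in control iNs (0.74 ± 0.11). These were the 2 positive calls among 19 fatty acid oxidation genes, which had a median of 0.09 and no negative call. Over all genes tested 5.01% were positive and 8.5% negative. The mitochondrially encoded genes gave no interaction call among 13, and their median deletion effect was −0.39 log2 in iNs and −0.39 in ESCs.

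Among called genes measured in both cell types, the highest positive value belonged to Cxcl12, a chemokine, with 2.62, 2.69 and 2.48 CPM in deletion iNs against 0.268, 0.472 and 0.174 CPM in control iNs (3.37 ± 0.31). Sall3, a zinc finger transcription factor, had 25.6, 20.1 and 24 CPM in deletion iNs against 4.75, 4.96 and 6.33 CPM in control iNs (2.4 ± 0.16). In ESCs Cxcl12 had 7.41, 7 and 6.18 CPM with the deletion and 9.66, 8.99 and 7.73 CPM in controls, and Sall3 had 13.8, 13.4 and 14 CPM in deletion ESCs against 17.1, 15.5 and 17.4 CPM in control ESCs. Both had negative values in ESCs that did not pass (adjusted p of 0.24 for Cxcl12 and 0.23 for Sall3). Gna14, a G protein subunit, had 16.6, 14.8 and 15.2 CPM in deletion iNs against 3.88, 3.21 and 3.48 CPM in control iNs (2.52 ± 0.21). Lgals9, Tmem132d and Efemp1, all under 4 CPM in iNs, stood at 2.57 ± 0.31, 2.56 ± 0.44 and 2.49 ± 0.34. On the negative side Lsr, a lipolysis-stimulated lipoprotein receptor, had 1.51, 0.897 and 0.913 CPM in deletion iNs against 6.09, 3.59 and 5.17 CPM in control iNs (−2.34 ± 0.24), and Emp2, a membrane protein of the tetraspan type, had 1.56, 1.16 and 0.761 CPM in deletion iNs against 3.75, 3.63 and 4.36 CPM in control iNs (−2.38 ± 0.27).

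Neuronal genes showed values of both signs, with positive ones in the majority. Of 24 pan-neuronal genes 5 were positive and 2 negative (median 0.14), of 28 glutamate receptor and postsynaptic genes 6 and 2 (median 0.32), and of 21 voltage-gated channel genes 6 and 0 (median 0.29), beside 5.01% positive and 8.5% negative over all genes tested. Values ran from −0.47 to 0.47 log2 in the pan-neuronal list, −0.70 to 2.21 in the glutamate list and −1.30 to 0.75 in the channel list. In the glutamate list Slc17a6 stood at 1.29 ± 0.38 and Grin1 at 1.13 ± 0.35. Their mean ESC levels were low, at 0.32 and 0.43 CPM with the deletion and 0.61 and 0.63 CPM in controls. The counts of calls were not stable. The pan-neuronal positive count was 1 to 3 without deletion iN library A or C, control iN library A, deletion ESC library B or C, or any control ESC library, the glutamate count was 3 without control ESC library C, and the channel count was 3 without deletion iN library C, deletion ESC library A or C, or control ESC library C. With limma on voom values the counts were 1, 2 and 3. Kcnq3, a subunit of the M-current channel, had 189, 218 and 207 CPM in deletion iNs against 148, 138 and 138 CPM in control iNs. In ESCs it had 11.6, 11.7 and 9.84 CPM with the deletion and 11.6, 13.6 and 13.6 CPM in controls (interaction 0.75 ± 0.11). Syn1, a synaptic vesicle protein, rose in iNs and fell in ESCs by small amounts (0.16 and −0.30, interaction 0.47 ± 0.08), and Nefl, a neurofilament, rose in ESCs (0.34) with an iN value of −0.13 that did not pass (interaction −0.47 ± 0.07).

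Of 18 neurogenic transcription factors only Neurog2 and Ebf3 (0.98 ± 0.17) were called. Ebf3 had 170, 187 and 173 CPM in deletion iNs against 145, 146 and 150 CPM in control iNs, and 0.837 to 1.19 CPM in deletion ESCs against 1.43 to 1.76 CPM in control ESCs. Among 19 sensory, cholinergic and peripheral genes 2 were positive and 4 negative, beside 5.01% and 8.5% over all genes tested. Ntrk3, the neurotrophin-3 receptor, had 200, 229 and 228 CPM in deletion iNs against 97.9, 81 and 87.4 CPM in control iNs but under 1 CPM in ESCs, and its interaction of 1.63 ± 0.39 (adjusted p = 0.011) lost the call without control ESC library A and with limma (adjusted p 0.0931 to 0.105). Slc18a3, the vesicular acetylcholine carrier, stood at 0.77 ± 0.15, and Phox2a, a factor of autonomic neurons, had 39, 32.5 and 33.3 CPM in deletion iNs against 58.6, 60.6 and 57.2 CPM in control iNs (−0.84 ± 0.20, a call lost without deletion ESC library A and with limma, adjusted p 0.051 to 0.054). The 4 negative calls of this list were 2 without any of 8 of the 12 libraries, the exceptions being deletion iN library B, control iN libraries A and C and control ESC library C.

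Guidance genes were split, 4 positive and 4 negative of 30, beside 5.01% positive and 8.5% negative over all genes tested. Sema3a, a repulsive cue, had 6.71, 6.33 and 6.34 CPM in deletion iNs against 14, 12 and 13.6 CPM in control iNs (−1.21 ± 0.20), while Nrp2 (0.68 ± 0.10) and Plxna2 (0.55 ± 0.11), subunits of semaphorin receptors, were positive. Robo2, the Slit receptor, was called lower in iNs (182, 179 and 178 CPM in deletion iNs against 241, 243 and 221 CPM in control iNs) and higher in ESCs (4.3, 4.2 and 4.29 CPM in deletion ESCs against 2.85, 2.05 and 2.83 CPM in control ESCs), for −1.10 ± 0.13. Vgf, a neuropeptide precursor, followed the same pattern at −1.05 ± 0.13, and Calca, the CGRP precursor, stood at 1.05 ± 0.26.

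Stem cell factors that remained at low levels in iNs moved in both directions. Dppa4 had 2.52, 2.69 and 2.44 CPM in deletion iNs against 6.42, 5.99 and 5.4 CPM in control iNs. Deletion ESCs had 81.3, 75.7 and 78.6 CPM and control ESCs 78, 68 and 71.5 CPM, for an interaction of −1.33 ± 0.13. Esrrb had 2.32, 3.06 and 3.19 CPM in deletion iNs against 4.89, 5.43 and 5.98 CPM in control iNs (−0.72 ± 0.13). Lin28a, which blocks let-7 maturation, had 15.2, 13.2 and 16.3 CPM in deletion iNs against 29.4, 28.3 and 24.4 CPM in control iNs (−0.94 ± 0.10), and Trim71, a let-7 target, stood at −0.64 ± 0.07. In contrast Tfcp2l1, a naive pluripotency factor, was called higher in iNs and lower in ESCs (0.50 and −0.30, interaction 0.80 ± 0.09). Klf4, under 1 CPM in iNs, stood at 1.73 ± 0.35. Sox2 had 0.202, 0.527 and 0.964 CPM in deletion iNs against 0.067, 0.047 and 0.232 CPM in control iNs (2.4 ± 0.58). The iN groups of Sox2 overlapped. In total 7 of 24 were negative and 3 positive, beside 8.5% negative and 5.01% positive over all genes tested. The list had 4 negative calls without deletion iN library B or control iN library B. Whether low levels in iNs come from few cells or from little RNA per cell cannot be told apart in bulk libraries.

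Smaller lists gave scattered calls, to be read beside 5.01% positive and 8.5% negative over all genes tested. Among genes measured in both cell types these shares were 6.44% and 12.7%. Among 20 p53 target genes 5 were negative and 2 positive, led by Tnfrsf10b, a death receptor (2.52, 2.11 and 2.03 CPM in deletion iNs against 6.42, 5.66 and 5.4 CPM in control iNs, −1.49 ± 0.14), and Bbc3, a pro-apoptotic BH3 protein (19.8, 21 and 16.4 CPM in deletion iNs against 8.63, 10.2 and 11.8 CPM in control iNs, 1.05 ± 0.19). Among 16 immediate early genes 4 were negative and 2 positive, and the list median was −0.41 log2. Egr1 had 1.31, 1.05 and 2.84 CPM in deletion iNs against 6.09, 6.37 and 5.63 CPM in control iNs (−1.46 ± 0.26). Jun had 119, 127 and 92 CPM in deletion iNs against 40.4, 46.3 and 53.7 CPM in control iNs (0.87 ± 0.16). The 17 microRNA pathway genes gave 2 positive and 3 negative calls, among them Ago4, an Argonaute (1.37 ± 0.31), and Tnrc6b, an Argonaute partner (0.50 ± 0.07). Ago4 had few reads in ESCs, with 6, 7 and 6 counts in deletion ESCs against 12, 9 and 11 in control ESCs. Its deletion effect was 0.57 in iNs and −0.80 in ESCs, where it did not pass (adjusted p = 0.35). DNA methylation genes gave 2 positive calls of 15, the methyltransferase Dnmt3a (0.39 ± 0.09) and the 5-methylcytosine oxidase Tet2 (0.37 ± 0.06), and none negative. Unfolded protein response genes gave 1 call of each sign among 14, Hsp90b1 (0.22, lost without control ESC library B, adjusted p = 0.0511) and Pdia6 (−0.28, lost without deletion iN library B, adjusted p = 0.0653). Nodal signalling genes gave 3 positive calls of 15, naive to primed transition genes 3 positive and 1 negative of 11, proliferation genes 2 of each sign of 20, endoderm and mesoderm markers 1 of each sign of 9, neural progenitor markers 1 positive of 10 (Pax6, 1.39 ± 0.23) and the Sall family 1 positive of 4. Neuropeptide genes gave 3 positive and 2 negative calls of 13, histone genes 1 negative of 15 and glial markers none of 6.

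Genes called in opposite directions numbered 85, with 21 higher in iNs and lower in ESCs and 64 lower in iNs and higher in ESCs. The first count was 8 without control ESC library B, 12 without control ESC library A or C, 11 without deletion ESC library B and 10 without C. The second was 36 without deletion iN library B, 35 and 41 without deletion ESC libraries B and C, and 40 without control ESC library A or B. Col12a1, a fibril-associated collagen, had 16.6, 14.1 and 17.9 CPM in deletion iNs against 25.4, 26.1 and 26.1 CPM in control iNs. Its ESC levels were 29.6, 28.3 and 29.8 CPM with the deletion and 21, 18.7 and 18.8 CPM in controls, for an interaction of −1.25 ± 0.12. Car2, a carbonic anhydrase, had 5, 3.85 and 4.01 CPM in deletion iNs against 9.57, 8.49 and 10.3 CPM in control iNs. In deletion ESCs the level was 90.3, 93 and 94.8 CPM, against 62.7, 62.1 and 66.5 CPM in control ESCs, for an interaction of −1.67 ± 0.12. In each of these the groups were apart in both cell types and in opposite order. Specc1, a cytoskeletal adaptor (−1.60 ± 0.14), Vav3, a guanine nucleotide exchange factor (−1.12 ± 0.13), and Arap3, a GTPase-activating protein (−1.17 ± 0.24), completed the 5 named on this side.

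Further genes were picked after their values were seen. Vim, the intermediate filament vimentin, had 454, 432 and 425 CPM in deletion iNs against 620, 601 and 575 CPM in control iNs. Levels were 233, 243 and 234 CPM in deletion ESCs, against 160, 163 and 161 CPM in control ESCs (interaction −1.01 ± 0.06). Msn, which links actin to the membrane, stood at −0.76 ± 0.07 and Vcl, the focal adhesion protein vinculin, at −0.57 ± 0.07, and both were called lower in iNs and higher in ESCs. Flnc, a filamin, had 181, 174 and 171 CPM in deletion ESCs against 115, 112 and 117 CPM in control ESCs with no call in iNs (−0.77 ± 0.13). Of the 16 fibroblast and actin-fibre markers 7 were called higher and none lower in deletion ESCs, and 6 higher and 1 lower in deletion iNs. Their interaction calls were 3 negative and 4 positive. Over all genes tested, 1.45% were higher and 0.47% lower in ESCs, and 10.8% and 12.1% in iNs. Interaction calls were 8.5% negative and 5.01% positive. Without deletion iN library B or C the negative calls were 1, and without deletion iN library B or any ESC library the positive calls were 2. Krt8, an epithelial keratin among the positive ones, rose in both cell types (1.99 in iNs and 0.73 in ESCs, interaction 1.26 ± 0.31).

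On the other side Kit, the stem cell factor receptor, had 5.25, 5.49 and 4.77 CPM in deletion iNs against 2.68, 2.97 and 3.66 CPM in control iNs. In ESCs it had 32.4, 31.9 and 33.9 CPM with the deletion and 44, 45.1 and 42.1 CPM in controls, for an interaction of 1.15 ± 0.14. Nalcn, a sodium leak channel, had 108, 103 and 102 CPM in deletion iNs against 80.4, 78.1 and 82.2 CPM in control iNs. Deletion ESCs had 1.38, 1.14 and 1.1 CPM and control ESCs 1.67, 2.6 and 2.08 CPM (interaction 1.16 ± 0.18). Rasgrp1, an activator of Ras, stood at 0.85 ± 0.10, Zic2, a zinc finger factor, at 1.18 ± 0.18 and Heca at 0.81 ± 0.12.

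In the Dlk1-Dio3 domain, in which the deletion lies, the noncoding transcripts Rian and B830012L14Rik were called higher in iNs and lower in ESCs. Meg3 had 1842, 2108 and 2067 CPM in deletion iNs against 1169, 1218 and 1690 CPM in control iNs. Its ESC levels were 246, 229 and 232 CPM with the deletion and 326, 283 and 297 CPM in controls. Its interaction was 0.92 ± 0.15 (adjusted p = 0.000784), with 0.56 in iNs and −0.36 in ESCs, a value that did not pass in the fit of 12 libraries (adjusted p = 0.12). Rian, which hosts small nucleolar RNAs, had 1084, 1234 and 1140 CPM in deletion iNs against 969, 893 and 1009 CPM in control iNs. In deletion ESCs the level was 337, 398 and 396 CPM, against 459, 489 and 513 CPM in control ESCs (interaction 0.64 ± 0.10). B830012L14Rik had 22.4, 29 and 27 CPM in deletion iNs against 14.2, 13.4 and 16 CPM in control iNs. Levels were 12.9, 13.2 and 13.8 CPM in deletion ESCs, against 20.2, 20.9 and 21.5 CPM in control ESCs (interaction 1.49 ± 0.14). Dlk1, the paternally expressed Notch-like protein, was lower in iNs (4.7, 3.69 and 4.51 CPM in deletion iNs against 10.8, 9.34 and 11.3 CPM in control iNs) and its interaction was negative (−0.95 ± 0.19). Dio3 (0.86 ± 0.32), Begain (0.74 ± 0.28), Wdr25 (−0.13 ± 0.23) and Dio3os (0.09 ± 0.89) did not pass, and the sign for Dio3os turned in 4 of the alternatives.

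**Figure D4:**
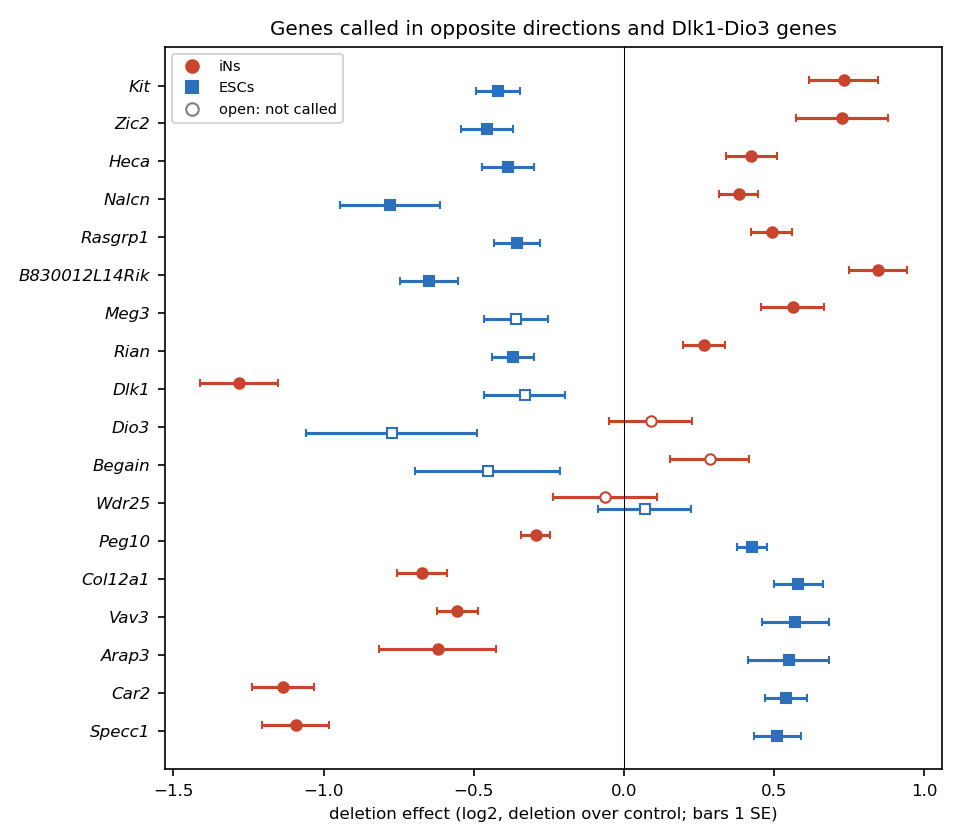
Deletion effect (x axis, log2, with bars of 1 SE) in iNs (red circles) and in ESCs (blue squares) for genes called in opposite directions and for genes of the Dlk1-Dio3 domain; open symbols did not pass. Kit, Zic2, Heca, Nalcn, Rasgrp1, B830012L14Rik and Rian lie to the right in iNs and to the left in ESCs, and Peg10, Col12a1, Vav3, Arap3, Car2 and Specc1 the other way.

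Imprinted genes outside the domain gave values of both signs. Of 27 paternally expressed genes there 3 were positive and 3 negative, and of 18 maternally expressed genes 1 and 2. Over all genes tested 5.01% were positive and 8.5% negative, and among genes measured in both cell types 6.44% and 12.7%. Peg10, a retrotransposon-derived paternally expressed gene, had 503, 492 and 526 CPM in deletion iNs against 659, 616 and 590 CPM in control iNs. In ESCs it had 3029, 3074 and 3206 CPM with the deletion and 2271, 2303 and 2357 CPM in controls (interaction −0.72 ± 0.07). H19, a maternal noncoding RNA, rose in both cell types but more in iNs, with 11, 16.4 and 12.5 CPM in deletion iNs against 3.08, 4.34 and 3.14 CPM in control iNs. Deletion ESCs had 125, 115 and 122 CPM and control ESCs 74.7, 64.3 and 70.9 CPM (interaction 1.10 ± 0.19). Peg3, a paternally expressed zinc finger gene, had 897, 891 and 919 CPM in deletion iNs against 537, 543 and 677 CPM in control iNs with no change called in ESCs (0.63 ± 0.10). With the genes of the domain included, 3 of 28 paternally expressed genes were positive and 4 negative, and 3 of 21 maternally expressed genes were positive and 2 negative. The 3 paternal positive calls were 1 without deletion iN library C, control iN library A, deletion ESC library B, or control ESC library A or C, and the 2 maternal negative calls were 1 without any deletion iN library, control iN library B, deletion ESC library B, or control ESC library A or B.

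Among genes not measured in both cell types, the fitted values of greatest size rested on a handful of reads in iNs and are given as counts. Summed over 3 libraries, Ttll6 had 7 counts in deletion iNs and 0 in control iNs, Qprt 12 and 0, Car4 7 and 0 and Psd4 18 and 1. Gbp2b had 0 and 5 counts, Acta2 0 and 4 and Eng 0 and 6 in the same groups. Pdyn, of the neuropeptide list and under 2 CPM in both cell types, had 0 counts in deletion iNs and 8 in control iNs. In ESCs these genes had 74 to 6623 counts per group. All 8 passed the threshold, but all except Psd4 lost the call in 2 to 15 alternatives. Cntnap3, a contactin-associated protein, had more reads, with 0.656, 0.844 and 0.406 CPM in deletion iNs against 12, 9.25 and 7.55 CPM in control iNs, and 0.105 to 0.311 CPM in deletion ESCs against 0.181 to 0.267 CPM in control ESCs (interaction −3.85 ± 0.71, adjusted p = 0.00203).

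The interaction was last set beside the authors' list of Ago2 regions in control iNs that they matched to microRNAs of the deleted cluster. Their list held 997 matched sites in 636 genes, most often for miR-495-3p (98), miR-666-3p (65) and miR-381-3p with miR-539-3p (59). The mature sequences of the microRNAs with the most sites, and of those matched to Txnip, are shown with the seed (bases 2 to 8) in capitals, from RefSeq on GRCm38.p6; miR-376b-5p and miR-376c-5p share a seed.
miR-495-3p: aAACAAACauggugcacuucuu
miR-666-3p: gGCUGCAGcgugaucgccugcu
miR-381-3p: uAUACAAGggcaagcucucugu
miR-543-3p: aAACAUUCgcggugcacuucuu
miR-300-5p: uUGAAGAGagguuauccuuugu
miR-369-3p: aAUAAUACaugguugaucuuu
miR-376b-5p: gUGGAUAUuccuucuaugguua
miR-376c-5p: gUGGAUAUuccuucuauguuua
miR-485-3p: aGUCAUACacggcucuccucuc
Of 620 matched genes tested, 52 were called positive (8.39%) and 106 negative (17.1%), with a median of −0.04 log2. Genes with other Ago2 regions only numbered 4975, of which 6.27% were positive and 12.7% negative, with a median of −0.05. The 2 sets were defined in unlike ways. Matched genes were assigned by the authors. The other set was assigned here, as RefSeq genes whose span, introns included, held a listed region on either strand. The matched genes thus had a larger share of calls in both directions and about the same median, and negative calls outnumbered positive ones in both sets. The sets also differed in detection, since 582 of 620 matched genes were measured in both cell types, against 4163 of 4975 with other regions only. Negative calls made up 12.7% of genes measured in both and 8.5% of all genes tested. No test of the difference between the sets was made. The negative share was nearer to that of other regions for the 200 genes with 2 or more matched sites (9% positive and 13.5% negative) and for the 231 whose region had a fold of at least 1 log2 and a −log10 p of at least 2 (9.96% and 13.4%). For the 78 tested genes matched to miR-495-3p, 6 were positive and 16 negative. Txnip carried 1 region with 2 matches (mm10 chr3:96561759-96561838, plus strand), to miR-485-3p and to miR-376b-5p with miR-376c-5p, and the authors' deposited table gave that region a log2 fold of 3.43 over untagged Ago2. Crebrf, a regulator of CREB3, carried 7 matched sites and had 48.2, 54.1 and 44.8 CPM in deletion iNs against 29.1, 26.1 and 27.7 CPM in control iNs. Its ESC levels were 30.2, 31.6 and 33.6 CPM with the deletion and 36.6, 34.9 and 38.8 CPM in controls (interaction 1.04 ± 0.11). Bcat1, a branched-chain transaminase that was also matched, went the other way, with 72.2, 78.6 and 67.6 CPM in deletion iNs against 183, 183 and 156 CPM in control iNs (−1.30 ± 0.09).

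The authors' own tables hold the deletion effect in each cell type and no interaction. At an adjusted p below 0.05 the authors' deposited table for iNs listed 1593 genes higher and 2120 lower, and that for ESCs 357 higher and 142 lower.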

How the data were processed

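RNA was measured in 12 rRNA-depleted libraries, 3 per group. The submitters' processing notes name the build mm10 and, without roles, the tools RSEM 1.2.30, STAR 2.4.1d and cutadapt 1.4.2, as well as SAMtools and DESeq2. The deposited files held RSEM's expected counts per gene, per the file headers, not scaled to depth. Strand setting and annotation release were not given in the sources used here, so genes that overlap or have close copies are uncertain. The authors' deposited DESeq2 tables hold, per the file headers, log2 fold changes with their adjusted p-values. In the authors' deposited Ago2 region lists each region has a −log10 p beside its log2 fold, with replicates pooled.

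The expected counts were rounded. A quasi-likelihood F test (edgeR 4.0.16, R 4.3.3) was run in 1 fit of 4 group means over the 12 libraries, after TMM scaling and filterByExpr (minimum count 10). P-values were adjusted by Benjamini-Hochberg over all 18299 genes with a threshold of 0.05, to which "called" and "passed" refer. The deletion effects are contrasts of the same fit, and the SE of a log2 value is taken from that value and its F statistic. CPM uses the TMM-scaled library size, except in the marker sums, which use the total counts of the library. The labels do not say that libraries came from separate cultures, so p-values measure the spread between these libraries, which may be technical. Depth was 14904735 to 21499106 counts per library and limits genes with few reads.

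The comparison, gene lists and rules were chosen with earlier results of these data known. Genes were named by this rule, among genes past the threshold without provisional symbols (Gm, Rik and similar): the 8 highest and 8 lowest values in genes measured in both cell types, 4 of each sign in genes measured in 1, 5 of each kind called in opposite directions, up to 2 per list, and all tested Dlk1-Dio3 genes. Other genes were chosen after their values were seen. In simulated data with 17991 genes, 30 of 100 interactions of 0.5 log2 and 79 of 100 of 1 log2 were recovered, and 7 of 116 calls were unchanged genes. The changed genes were drawn from those above a count floor in both cell types, and were changed only in deletion iNs. Far fewer genes were changed than were called in the data. These rates therefore do not cover genes with few reads in a cell type. Symbols were found for 51326 of 52636 entries. Replicate letters recur in all groups. To look for pairing, each library's log2 CPM was expressed as a deviation from its group mean, over 10259 genes. Across genes, these deviations, and not the levels themselves, were correlated between same-letter libraries of different groups. The values were 0.07 to 0.39 in ESCs, −0.09 to 0.01 in iNs and −0.3 to 0.07 between the cell types. Letters were not taken as pairs in the main fit, and blocks by letter were alternatives. Alternatives included limma 3.58.1 and DESeq2 1.42.0. Small RNA libraries were not used. Some results are not reported here.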

Additional observations from a re-analysis of the deposited data

Results flagged for a closer look

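Of the 90 genes named by rule, 85 passed the interaction test, and 83 of them are listed. This count is no outcome of its own. The rule took only genes past the threshold, apart from the Dlk1-Dio3 genes, which were named whether they passed or not. The log2 value was −1.5 or lower for Cth (−4.87), Cntnap3 (−3.85), Phgdh (−3.74), Slc7a3 (−3.6), Emp2 (−2.38), Lsr (−2.34), Stc2 (−2.34), Hk2 (−2.3), Chac1 (−2.29), Slc1a5 (−1.87), Psat1 (−1.84), Tagln (−1.72), Car2 (−1.67), Specc1 (−1.6), Kdr (−1.59) and Scd1 (−1.54). It lay closer to 0 but at −1 or lower for Tnfrsf10b (−1.49), Egr1 (−1.46), Col12a1 (−1.25), Sema3a (−1.21), Hist2h2ac (−1.21), Arap3 (−1.17), Vav3 (−1.12), Stard4 (−1.11), Robo2 (−1.1), Mvd (−1.06) and Arc (−1.05). Smaller negative values belonged to Dlk1 (−0.95), Lin28a (−0.94), Scd2 (−0.86), Phox2a (−0.84), Cars (−0.76), Peg10 (−0.72), Tars (−0.68), Nefl (−0.47), Mcm6 (−0.4) and Pdia6 (−0.28). Positive values of 2 or more belonged to Cxcl12 (3.37), Txnip (3.09), Lgals9 (2.57), Tmem132d (2.56), Gna14 (2.52), Efemp1 (2.49), Cpt1a (2.41), Sall3 (2.4) and Sox2 (2.4). The Sox2 value rested on 4, 10 and 19 counts in deletion iNs against 1, 1 and 4 in control iNs, and these groups overlapped in CPM. Values of at least 1 but below 2 belonged to Klf4 (1.73), Ntrk3 (1.63), B830012L14Rik (1.49), Pax6 (1.39), Ago4 (1.37), Ccna2 (1.35), Neurog2 (1.35), Slc17a6 (1.29), Zic2 (1.18), Nalcn (1.16), Kit (1.15), Grin1 (1.13), H19 (1.1), Bbc3 (1.05), Calca (1.05) and Tal1 (1.04). The smaller positive values were those of Ebf3 (0.98), Meg3 (0.92), Rasgrp1 (0.85), Heca (0.81), Kcnq3 (0.75), Slc25a20 (0.74), Rian (0.64), Acvr2b (0.47), Syn1 (0.47), Pou3f1 (0.42), Dnmt3a (0.39), Tet2 (0.37) and Hsp90b1 (0.22). Genes with 3 or fewer counts in an iN group are given by adjusted p in place of a fold, Ttll6 (0.0306), Qprt (0.0204), Car4 (0.0405), Psd4 (0.00423), Gbp2b (0.0368), Acta2 (0.0403), Eng (0.048) and Pdyn (0.0384). Some of these calls were lost in alternatives, for Pou3f1 in 15, Grin1 in 14, Slc17a6 in 6, Tagln and Hist2h2ac in 4 each and Sox2 in 2 (without deletion iN library C or control iN library B, adjusted p 0.0563 to 0.0604). No explanation of these differences was tested. Groups of 3 libraries were too small for a check of single libraries that stand apart.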

How the results depend on the processing

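Of the 85 called genes named by rule, 67 kept their sign and stayed past the threshold in every alternative that gave a value, 18 lost the call in at least 1, and none changed sign. Of 47 other called genes described, 42 kept sign and call in every alternative. Interaction calls were 647 to 860 positive and 907 to 1566 negative with 1 library left out; the lowest negative count came without deletion iN library B. Deletion effects were 1430 to 2102 higher and 1506 to 2422 lower in iNs, and 130 to 281 higher and 37 to 100 lower in ESCs, with 8 to 22 and 35 to 62 opposite calls. Without a filter there were 442 higher and 323 lower calls in ESCs and 53 and 114 opposite calls. DESeq2's Wald test gave 146 lower calls in ESCs and 34 and 99 opposite calls, and genes with at least 2 CPM in each cell type gave 36 opposite calls that were higher in iNs. With the replicate letter as a block, 2120 genes were called (84.3% of the 2473 genes were among them) with 775 positive and 1345 negative, and with a block within cell type 2542. The block within cell type gave 258 higher and 127 lower calls in ESCs, against 266 and 86 without a block. In their deviations from the group mean, pairs of the same letter correlated at −0.09 to 0.01 in iNs and 0.07 to 0.39 in ESCs. By the same measure, deletion and control ESC pairs of different letters correlated at −0.34 to 0.1. The Dio3os interaction log2 value turned to −0.0528 without control iN library A, −0.463 without deletion ESC library B, and −0.606 and −0.00278 without control ESC libraries A and C, and was at most 0.885 with 1 library left out. Against all genes without a matched Ago2 region, in place of genes with other regions, the matched genes' excess of negative calls was 8.9 in place of 4.4 percentage points. Of the 17679 genes without a matched region, 10551 were measured in both cell types, against 582 of 620 matched genes. The cause of these changes was not tested, except that left-out libraries and other filters change how many samples and genes are tested. Depth limits the genes with few reads in iNs.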
